A study of Macaca mulatta with 80 samples.

Results

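The subiculum and the entorhinal cortex (EC) were compared in newborn male rhesus monkeys (Macaca mulatta), 1 day old, on 8 arrays of the 80 in the series. Arrays labelled as newborn subiculum (Sub) and newborn EC were chosen by their source label, 4 of each, and set against each other within the numbers 13 to 16 that their titles carry. The series covers 16 males at 4 ages and 5 regions of the hippocampal formation, 1 array for each region of each animal, which the design text describes as separate chips, so the replicates are separate animals. No treatment other than a pentobarbital overdose is given for any group, and the brains were sliced, kept in an RNA preservative, frozen and microdissected through all layers. The subiculum was taken at the body of the hippocampus and the EC from its intermediate division, both from the middle of the region, so a difference between them is one between tissue blocks that hold neurons, glia, vessels and any membrane left on the surface. In such bulk tissue, fewer cells of a type and less RNA per cell cannot be told apart. The array was designed for human transcripts, and where macaque and human sequences part, the signal of both regions can be low.

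The subiculum receives the output of CA1 and sends the main projections of the hippocampus to the cortex, the thalamus, the mammillary bodies and the nucleus accumbens. The entorhinal cortex is the layered cortex through which neocortical input reaches the dentate gyrus and the hippocampus, and its superficial stellate and pyramidal cells form the perforant path. At birth in primates the neurons of both regions are in place, while myelin, interneuron chemistry and dendrites are still maturing.

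The unit throughout is the log2 signal, quantile normalized over the 80 arrays, with 1 probe set standing for each of 19775 genes, and differences are Sub minus EC. A gene was called when its Benjamini-Hochberg adjusted p in limma, with the number as a block, was under 0.05. Of the genes tested, 755 were higher in the subiculum (3.82%) and 618 were lower (3.13%), together 6.94%. These shares are set beside the gene list counts below, but they run over all genes, dim ones included. When only genes above the median signal were fitted, 739 were higher and 570 lower. The shares among these fewer, brighter genes were thus larger, and a list of bright genes has a higher background than 3.82% and 3.13%. The lists were drawn up with earlier results of these data known. The median size of a called difference was 0.50, and 61 called genes were higher and 54 lower by at least 2-fold. The Sub and EC arrays did not overlap at all for 2255 genes (11.4%), among them 1068 of those called. Most called genes thus did not overlap, so non-overlap of a called gene is no separate support for it. Leaving out each animal in turn kept 581 of the 1373 calls in all 4 fits, and the number of calls was 839 without animal 13, 895 without 14, 1326 without 15 and 859 without 16. The log2 ratio of the 3′ to the 5′ GAPDH probe set, a sign of RNA quality, was 1.28 to 1.40 in the subiculum and 1.26 to 1.45 in the EC, and the difference of −0.025 had an exact two-sided permutation p of 0.75, where 4 pairs can give no less than 0.125. The correlation between arrays was 0.985 to 0.993 within a region and 0.976 to 0.986 between the regions.

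**Figure D1:**
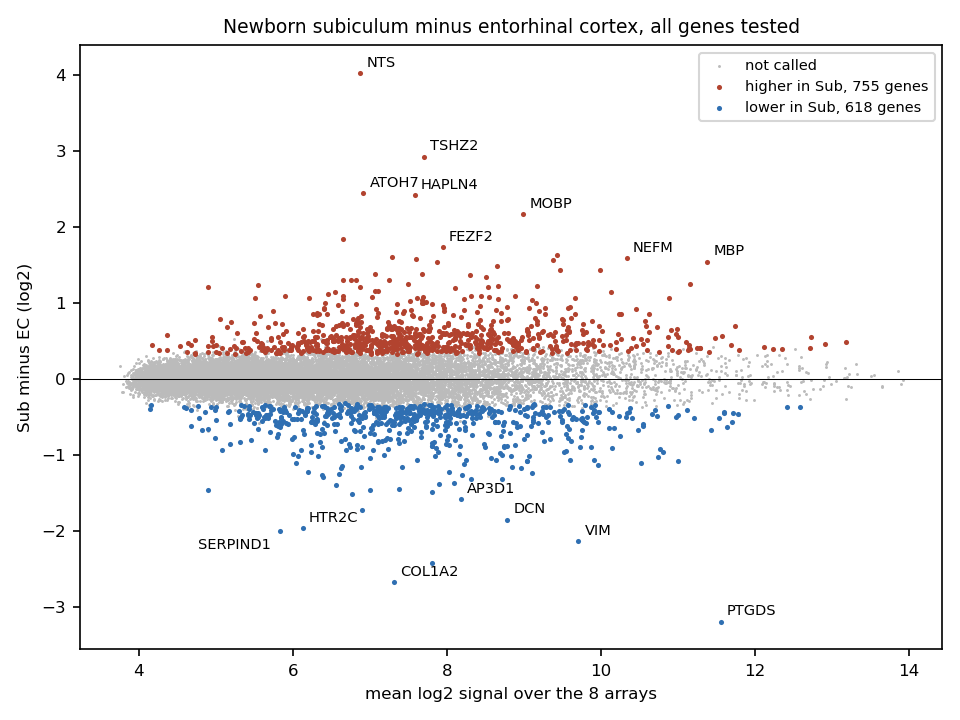
Each dot is 1 of 19775 genes, with its mean log2 signal over the 8 newborn arrays on the x axis and Sub minus EC (log2) on the y axis; coloured dots passed the limma threshold, 755 higher and 618 lower in the subiculum. NTS stands highest at 4.03 and PTGDS lowest at −3.20.

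Neurotensin led the genes that were higher in the subiculum. NTS encodes the precursor of the peptide neurotensin, which acts on dopamine neurons and on body temperature. Its signal was 8.44, 9.11, 9.39 and 8.64 in the subiculum of animals 13, 14, 15 and 16, and 4.67, 5.71, 4.70 and 4.37 in their EC. The lowest subicular array lay well above the highest EC array. The difference was 4.03 ± 0.154 (SE, n = 4 pairs), or 16.4-fold, with a limma adjusted p of 2.02e-10, and it stayed between 3.81 and 4.24 when any 1 animal was left out. The EC signals were all below 5.98, the median of all gene means, so the fold there rests on dim readings.

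Among the 15 largest rises were TSHZ2, FEZF2, ATOH7, TOX and HLF, which encode nuclear proteins. TSHZ2, a teashirt zinc finger factor, read 9.63, 9.39, 8.17 and 9.47 in the subiculum and 5.96, 6.66, 6.37 and 5.96 in the EC, a difference of 2.93 ± 0.206 (SE; limma adjusted p = 2.33e-07), and its 5 other probe sets differed the same way. Animal 15 had the lowest subicular TSHZ2 and still no EC array reached it. FEZF2, the zinc finger factor that specifies deep-layer neurons projecting below the cortex, read 8.43, 8.93, 9.37 and 8.55 against 6.81, 7.27, 7.20 and 7.03. Its difference was 1.74 ± 0.113 (SE; limma adjusted p = 1.07e-07). ATOH7, a basic helix-loop-helix factor best known for its part in making retinal ganglion cells, read 8.47, 8.56, 7.43 and 8.11 in the subiculum and only 5.57 to 5.76 in the EC. The ATOH7 difference was 2.45 ± 0.134 (SE, limma adjusted p = 1.39e-08). Its EC readings were all below 5.98, the median of all gene means, so the size of that difference rests on dim readings. TOX, an HMG-box nuclear protein, was higher by 1.84 and HLF, a leucine zipper factor with circadian relatives, by 1.48, and neither gene's arrays overlapped between the regions.

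Genes for the matrix, the axon and a hormone receptor followed. HAPLN4, a link protein of the perineuronal nets that surround some neurons, read 8.57, 8.56, 9.60 and 8.45 in the subiculum and 6.18, 6.42, 6.62 and 6.25 in the EC. Animal 15 was the highest in both regions, and the difference was 2.43 ± 0.125 (SE; limma adjusted p = 7.84e-09). NEFM, the medium neurofilament subunit, read 11.03 to 11.25 in the subiculum and 9.14 to 9.88 in the EC, a difference of 1.59, but the gene's 1 other probe set did not differ the same way. RXFP1, a receptor for relaxin, read 8.49, 8.69, 8.73 and 8.66 against 6.84, 7.03, 6.96 and 7.58. The RXFP1 difference was 1.54 ± 0.116 (SE; limma adjusted p = 4.92e-07). CRTAC1, a secreted acidic protein, was higher by 1.63, and NDST4, an enzyme that sulfates heparan sulfate, by 1.61, the latter with its 1 other probe set not following.

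**Figure D2:**
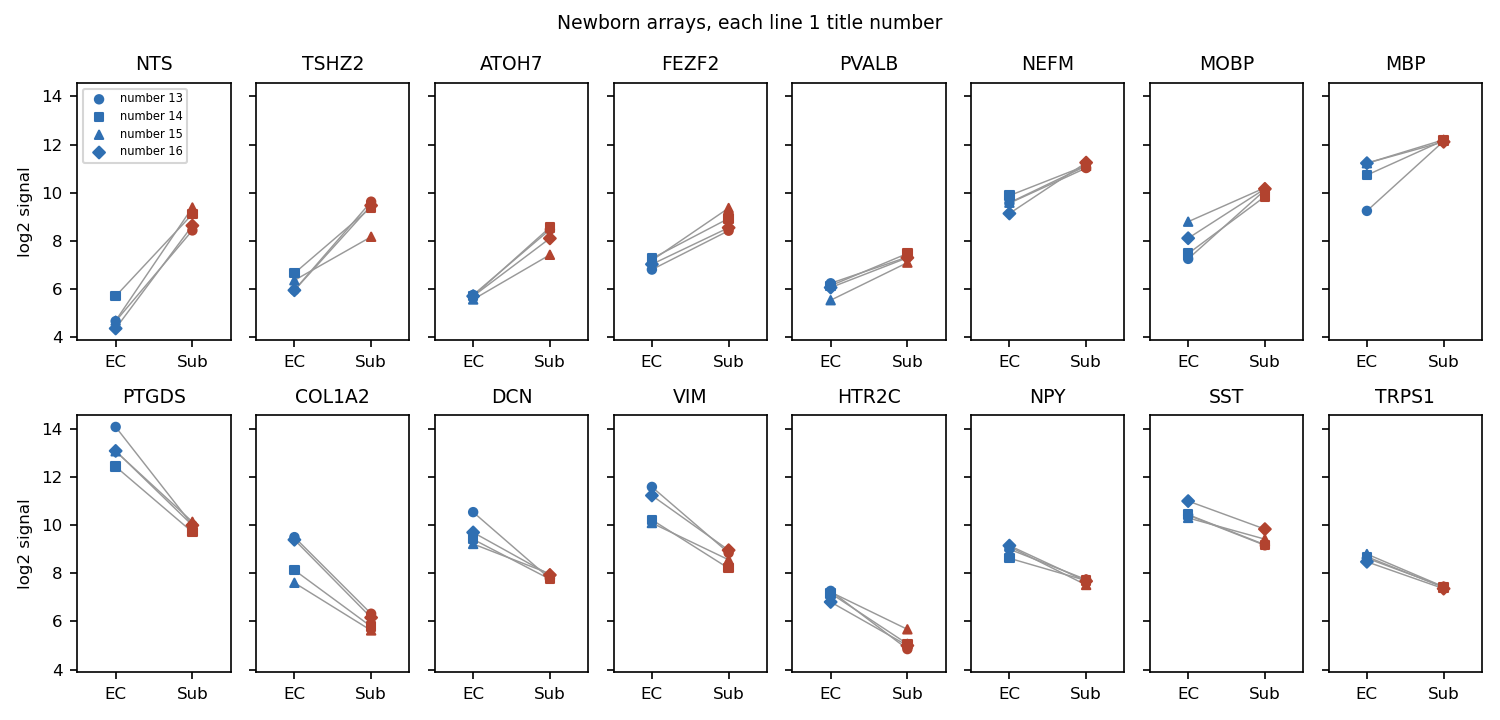
The log2 signal of 16 genes on the 4 EC (blue) and 4 Sub (red) newborn arrays is plotted, with a line joining the 2 regions of each title number. In each panel all 4 lines run the same way, up for NTS to MBP and down for PTGDS to TRPS1.

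The largest falls in the subiculum were of genes known from the meninges and fibroblasts, from glia and from one serotonin receptor. PTGDS, the prostaglandin D synthase abundant in the meninges, choroid plexus and oligodendrocytes, read 10.00, 9.71, 10.13 and 9.99 in the subiculum and 14.07, 12.42, 13.06 and 13.07 in the EC. Its difference was −3.20 ± 0.160 (SE), 9.18-fold lower, with a limma adjusted p of 6.80e-09. COL1A2, a chain of type I collagen, read 6.32, 5.79, 5.63 and 6.16 against 9.50, 8.13, 7.60 and 9.39. The subicular arrays lay close together for both genes, while the EC arrays spread by over 1 log2 unit, with animals 13 and 16 highest for COL1A2. Its difference was −2.68 ± 0.163 (SE; limma adjusted p = 6.14e-08). COL3A1, a chain of type III collagen, differed by −2.43 and DCN, the matrix proteoglycan decorin, by −1.85, and for COL3A1 only 2 of 4 other probe sets differed the same way.

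SLC13A4, a sulfate transporter, CEMIP, which takes part in breaking down hyaluronan, and LRRC17, a leucine-rich repeat protein, repeated the pattern of the EC arrays seen for COL1A2. In the EC of animals 13 to 16, SLC13A4 read 8.64, 7.12, 7.21 and 8.08, against 5.98 to 6.11 in the subiculum. CEMIP read 8.48, 6.92, 6.78 and 7.93, against 5.86 to 6.16. Animals 13 and 16 were the highest for both genes and for LRRC17, whose difference was −1.40. SERPIND1, the thrombin inhibitor heparin cofactor, ranged most widely, with 8.50, 5.58, 6.42 and 6.82 in the EC and 4.72 to 4.90 in the subiculum. Its subicular readings were dim, below the median gene mean of 5.98. The SERPIND1 difference of −2.00 became −1.41 without animal 13 (range when 1 animal was left out, −2.41 to −1.41).

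The meningeal and fibroblast list itself holds COL1A2, COL3A1 and DCN, so its values are not separate from theirs. Of its 16 measured members, 7 were lower in the subiculum and 0 higher, the median difference was −0.49 where that of all genes was 0, and all 16 differences were negative. The mean log2 signal of the list was 6.13 to 6.30 in the subiculum and 7.42, 6.72, 6.64 and 7.20 in the EC of animals 13 to 16, and the summed linear signal was 1711 to 1986 against 2671 to 5964. Among the members that were not called, chosen here after their values were seen, COL1A1 differed by −0.18, LUM by −0.02 and SLC6A13 by −0.05. The part of meningeal tissue in the results for PTGDS, COL1A2, COL3A1, DCN, SLC13A4, CEMIP, LRRC17 and SERPIND1 was not tested. Both IGFBP2, a binding protein for insulin-like growth factors, at −1.02 and FN1, fibronectin, at −0.77 were called, and FN1 is also on the list of subicular neuron markers.

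HTR2C was the neuronal receptor gene with the largest fall. It encodes a serotonin receptor coupled to phospholipase C and read 4.85, 5.07, 5.67 and 5.00 in the subiculum and 7.27, 7.17, 7.22 and 6.81 in the EC. The 4 EC arrays lay close together and above all subicular arrays. The subicular readings were all below 5.98, the median of all gene means, so the size of the difference rests on dim readings. The difference was −1.97 ± 0.124 (SE; limma adjusted p = 8.57e-08), and 1 of 1 other probe set differed the same way. The difference was −1.45 for RSPO3, a secreted enhancer of Wnt signalling, −1.46 for the transcriptional coregulator gene MN1, −1.49 for PHACTR2, a regulator of phosphatase and actin, and −1.39 for KCTD4, which carries a channel tetramerisation domain. AP3D1, a subunit of the adaptor complex that sorts cargo to lysosomes, was at −1.58, and of its 2 other probe sets 1 followed.

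Of 20 measured subicular markers, 8 were higher and 2 lower, where 3.82% of all genes were higher and 3.13% lower. The median was 0.00. The higher ones included NTS, TSHZ2 and FEZF2, and FN1 was among the lower. PCP4, a small calmodulin-binding protein, read 10.59, 10.87, 10.89 and 10.46 in the subiculum and 9.16, 9.57, 9.27 and 9.08 in the EC, a difference of 1.43 ± 0.0987 (SE; limma adjusted p = 1.82e-07). TLE4, a corepressor of corticothalamic neurons, was higher by 0.85. The mean log2 signal of the list was 7.47 to 7.65 in the subiculum and 6.98 to 7.12 in the EC, with no overlap, although 10 of the 20 differences were positive and 10 negative and NTS, TSHZ2 and FEZF2 had the largest.

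Of 18 genes of the entorhinal and other six-layered cortex, 5 were higher and 6 lower in the subiculum, with a median of −0.15. TRPS1, a zinc finger repressor, read 7.36 to 7.44 in the subiculum and 8.62, 8.68, 8.79 and 8.47 in the EC. The TRPS1 difference was −1.23 ± 0.0970 (SE; limma adjusted p = 6.58e-07), and its 3 other probe sets differed the same way. LMO4, a LIM-domain cofactor that marks cortical areas, was lower at −0.82. The higher members included the neurofilament genes NEFM and NEFH (0.89) and RASGRP1 (0.58), an activator of Ras, so this list's name did not set the direction of its members. Without animal 14, 3 members of the list were lower.

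Markers of the neighbouring hippocampal fields form short lists with some members called, where 3.82% of all genes were higher and 3.13% lower. Of 11 CA1 pyramidal markers, 3 were higher, namely NDST4, PEX5L (0.90) and the POU factor gene POU3F1 (0.68), and DCN was lower, which is also on the meningeal list. Of 12 CA3 markers, NECTIN3 (0.55), a cell adhesion molecule, and the potassium channel gene KCNQ5 (0.65) were higher. KCNQ5 was higher in 3 of 4 pairs (−0.01 in animal 15), its arrays overlapped and its 1 other probe set did not follow. No CA3 marker was higher without animal 14 or with the mean over all probe sets, and 1 was without animal 16. Of 10 dentate granule cell markers, CALB1 (−0.66), the calcium buffer calbindin, and GRP (−0.47), a peptide, were lower; their limma adjusted p-values without the block were 0.074 and 0.0557, and neither was called without animal 13. The mean log2 signal of the CA1 list was 7.47 to 7.57 in the subiculum and 7.29 to 7.46 in the EC, and that of the granule cell list 5.95 to 6.08 and 5.93 to 6.20. Of 11 markers of the thalamus and nearby nuclei, CALB2 and IRX1 (−0.41) were lower and none higher. IRX1 was dim, with means of 4.48 in the subiculum and 4.88 in the EC. It lost its call with centred arrays and without animal 13, 14 or 16.

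Deep-layer projection neuron genes were more often higher than lower. Of 19 measured, 9 were higher and 3 lower, and the median was 0.24; HTR2C was the lower member with the smallest p. The count of higher members was 4 when all 20 newborn arrays were fitted together and 5 when the GAPDH ratio was added to that fit. FEZF2, PCP4, TSHZ2 and TLE4 are on both this list and the subicular one, so the counts are not independent.

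Of 31 cortical patterning factors, 4 were higher and 5 lower. Without animal 13, 2 were higher, and without animal 16 or without the block, 3 were lower. MEIS2, a homeobox cofactor, was lower at −1.01 and LHX2, a LIM homeobox factor that sets cortical identity, at −0.89. TSHZ3, a relative of TSHZ2, was higher at 0.88, and NEUROD6, a helix-loop-helix factor of pyramidal neurons, at 0.62. For each of these 4 genes the Sub and EC arrays did not overlap, as was so for 1068 of the 1373 called genes. Of 10 Cajal-Retzius cell markers, 3 were lower: CALB2 (−1.01), ZIC1 (−0.83) and RELN (−0.57). RELN, the secreted signal reelin, overlapped between regions, and its limma adjusted p of 0.0172 became 0.0756 without the block.

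Of 22 interneuron markers, 2 were higher and 4 lower, and 1 was higher without animal 16 or without the block. PVALB, the calcium-binding protein of fast-spiking basket cells, read 7.33, 7.48, 7.10 and 7.30 in the subiculum and 6.25, 6.14, 5.54 and 6.07 in the EC, a difference of 1.30 ± 0.103 (SE; limma adjusted p = 6.58e-07). NPY, a peptide of several dendrite-targeting and neurogliaform cells, read 7.51 to 7.74 against 8.62 to 9.14, a difference of −1.31. SST, the peptide somatostatin of dendrite-targeting cells, read 9.16, 9.18, 9.41 and 9.83 against 10.41, 10.43, 10.29 and 10.99. The SST difference was −1.14 ± 0.102 (SE; limma adjusted p = 2.59e-06). No array of PVALB, NPY or SST crossed between regions, as was so for 1068 of the 1373 called genes. MAF (−0.71), a factor of interneurons from the medial ganglionic eminence, and CALB2 (−1.01), calretinin, were lower too. GAD1, which makes GABA, did not pass the test at −0.35 (limma adjusted p = 0.0536).

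**Figure D3:**
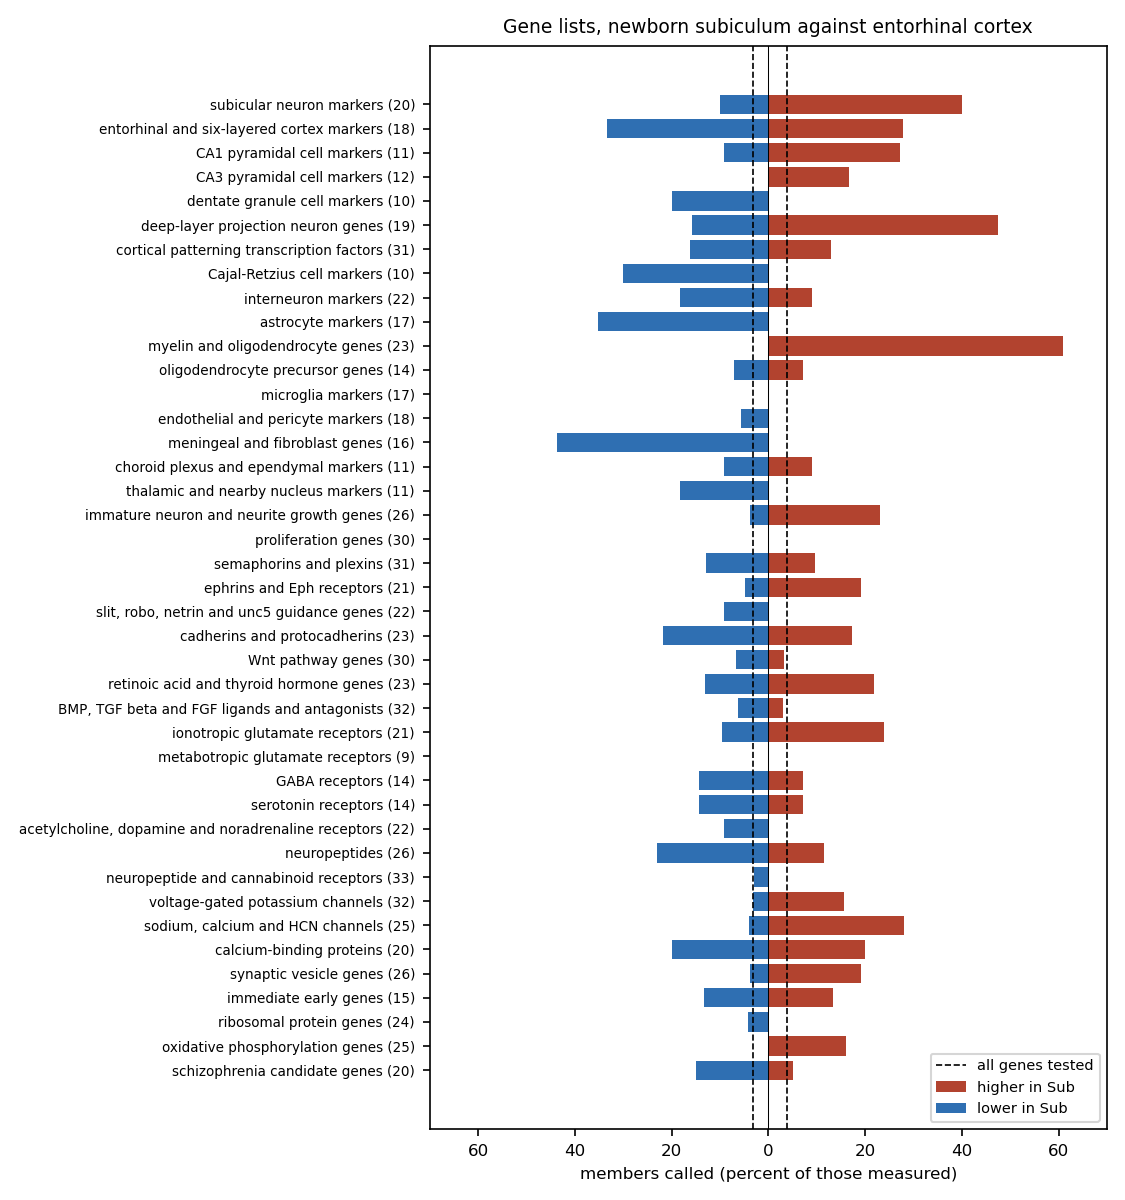
For 41 gene lists the bars give the percent of measured members called higher (red, to the right) or lower (blue, to the left) in the newborn subiculum, with the number measured in brackets; the dashed lines mark 3.82% and 3.13%, the shares over all genes tested. The longest bars are those of the myelin list to the right (14 of 23) and the meningeal list to the left (7 of 16).

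Myelin genes were higher in the subiculum as a group. Of 23 measured, 14 were higher and 0 lower, and the median was 0.55. MOBP, a protein of compact myelin, read 10.11, 9.84, 10.21 and 10.16 in the subiculum and 7.26, 7.47, 8.80 and 8.11 in the EC, a difference of 2.17 ± 0.160 (SE; limma adjusted p = 3.96e-07). MBP, the main cytoplasmic protein of the sheath, read 12.11 to 12.20 against 9.25, 10.73, 11.22 and 11.23. The subicular arrays were nearly level, while the EC of animal 13 was the lowest for both genes, and the MBP difference of 1.55 was 1.10 without that animal. For MBP, 4 of 8 other probe sets differed the same way, and its call was lost with the mean over all probe sets.

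UGT8, which makes the myelin lipid galactosylceramide, was higher by 1.58, CLDN11, the claudin of myelin tight junctions, by 1.57, MOG, a surface protein of mature sheaths, by 1.30 and MAL, a raft protein, by 1.14. The list's mean log2 signal was 7.16 to 7.23 in the subiculum and 6.21, 6.46, 6.62 and 6.63 in the EC of animals 13 to 16. Genes of oligodendrocyte precursors did not follow as a group: of 14, SOX10 (0.55) was higher and VCAN (−0.57) lower, and the median was 0.01. VCAN lost its call in 10 alternatives, those without animal 13, 15 or 16 among them.

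Astrocyte genes were lower where they differed. Of 17 measured, 6 were lower and 0 higher, with a median of −0.34. AQP4, the water channel of astrocyte endfeet, read 5.48, 5.83, 5.14 and 5.57 in the subiculum and 6.17, 6.77, 6.07 and 6.99 in the EC. The AQP4 difference was −0.99 ± 0.115 (SE, limma adjusted p = 3.56e-05), and the subicular readings were dim, all below the median gene mean of 5.98. SOX9, a glial transcription factor, read 8.15 to 8.49 against 9.06 to 9.45. ETNPPL (−0.94), ALDH1L1 (−0.74) and AGT (−0.69) were the other 3 of the 5 with the smallest p, and AGT overlapped between regions. VIM, an intermediate filament of radial glia, immature astrocytes and fibroblasts, read 8.84, 8.20, 8.56 and 8.96 against 11.58, 10.21, 10.08 and 11.22, with animals 13 and 16 highest in the EC, as for the collagen genes. Its 1 other probe set did not differ the same way. With the mean over all probe sets, 3 astrocyte genes were lower, not 6.

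Other non-neuronal lists had few or no calls. Of 17 microglia markers none was called in limma in either direction, 2 had an unadjusted p under 0.05, and C1QB came nearest at −0.26 (limma adjusted p = 0.176). Of 18 endothelial and pericyte markers, only CDH5, the adhesion molecule of vessel walls, was called (−0.44), and it lost its call without the block. Of 11 choroid plexus and ependymal markers, FOLR1, a folate receptor, was higher (1.00) and KCNJ13 lower (−0.68), while TTR, the main product of the choroid plexus, was not called (0.26). KCNJ13 was dim, with means of 4.48 in the subiculum and 5.16 in the EC. No proliferation gene of 30 was called in limma, although 5 had an unadjusted p under 0.05, and PTTG1 came nearest at 0.38 (adjusted p = 0.0570).

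Genes of neurite growth and guidance differed in both directions. Of 26 immature neuron genes, 6 were higher, among them the axonal adhesion genes CNTN2 (0.61) and NCAM1 (0.56) and the stathmins STMN2 (0.49) and STMN4 (0.57), and NNAT (−0.75), neuronatin, was the 1 that was lower. Of 21 ephrins and Eph receptors, 4 were higher and EFNB2 (−0.89) lower. EPHB1, a receptor that repels axons, read 9.43, 9.33, 8.99 and 9.36 in the subiculum and 7.93, 7.88, 8.11 and 8.26 in the EC, a difference of 1.23 ± 0.114 (SE; limma adjusted p = 3.62e-06). EPHA4 (1.07), EFNA5 (0.99) and EPHA7 (0.54) were the other higher members. With the mean over all probe sets, 1 of the 26 immature neuron genes and 2 of the 21 ephrin genes were higher.

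PLXNC1, a semaphorin receptor, was lower (−1.18 ± 0.122 SE; limma adjusted p = 1.31e-05) and NRP1, the coreceptor of class 3 semaphorins, higher (0.91 ± 0.0962 SE; limma adjusted p = 1.47e-05). SEMA3A, a ligand that acts through NRP1, was lower at −0.55, and in all 3 of 31 semaphorin and plexin genes were higher and 4 lower. With the mean over all probe sets, 0 were higher and 1 lower, and NRP1, SEMA3A, PLXNB2 and SEMA4D were among those that lost their calls. In the slit, robo, netrin and unc5 list, NTNG1 (−0.81), an axonal netrin held to the membrane, and SLIT1 (−0.44) were the 2 of 22 that were lower, and none was higher. Among 23 cadherins and protocadherins, 4 were higher and 5 lower; PCDH8 (−1.09), CDH10 (−0.82), PCDH18 (−0.72) and CDH2 (−0.55) were lower and CDH11 (0.48) higher. Without animal 16, 2 cadherins were higher.

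Of the signalling lists, that of retinoic acid and thyroid hormone genes had the most calls. In the retinoic acid and thyroid hormone list 5 of 23 were higher and 3 lower. CYP26A1, the enzyme that degrades retinoic acid, read 7.91, 8.18, 8.04 and 7.46 in the subiculum and 6.60, 6.93, 6.69 and 6.15 in the EC, and every animal showed nearly the same difference, 1.31 ± 0.0948 (SE; limma adjusted p = 3.37e-07). ALDH1A1, which makes retinoic acid, was higher by 0.71 and the thyroid hormone receptor gene THRB by 0.59. KLF9, a thyroid hormone target, was higher by 1.22 with 1 of 4 other probe sets following, and the orphan receptor gene RORA was lower at −1.26. Of 30 Wnt pathway genes, the antagonist gene WIF1 was higher (0.93) and RSPO3 and SFRP2 (−0.51) were lower. Of 32 BMP, TGF beta and FGF genes, FGF9 was higher (0.60) and BMP2 (−0.54) and BMP4 (−0.41) were lower. Both lists stayed close to the background of 3.82% higher and 3.13% lower over all genes, and SFRP2 lost its call without the block and without animal 13, 15 or 16. Without animal 13, 1 retinoic acid and thyroid hormone gene was lower. With the mean over all probe sets 2 genes of that list were higher. The count was 3 with all 20 newborn arrays and when the spread was shared over 32 arrays.

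Of 26 neuropeptides, 3 were higher and 6 lower. PDYN, the precursor of dynorphin, read 7.78, 7.85, 6.95 and 8.47 in the subiculum and 6.34, 6.68, 6.44 and 6.04 in the EC, a difference of 1.39 ± 0.196 (SE; limma adjusted p = 0.000265), smallest in animal 15. NTS and PDYN were thus the higher members among the 5 with the smallest p, and NPY, SST and NXPH2 (−0.55) the lower. Without animal 13, 3 neuropeptides were lower. Among 33 receptors for peptides and cannabinoids, only OPRK1 (−0.52), the dynorphin receptor, was called, and its adjusted p rose from 0.0359 to 0.0702 without the block.

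Of 21 ionotropic glutamate receptor genes, 5 were higher and 2 lower. GRIK3, a kainate receptor subunit, read 8.38, 8.75, 8.46 and 8.19 in the subiculum and 7.22, 7.41, 7.52 and 7.72 in the EC, a difference of 0.98 ± 0.124 (SE; limma adjusted p = 9.21e-05). GRIK1 (0.58) and the NMDA receptor genes GRIN2B (0.61) and GRIN3A (0.40) were also higher, and the AMPA receptor gene GRIA3 (−0.44) was lower. With the mean over all probe sets 1 member was higher, and 3 were without animal 13 or without 14, when 0 were lower. GRIA3 lost its call in 9 alternatives. None of the 9 metabotropic receptor and scaffold genes was called in limma, and 1 had an unadjusted p under 0.05.

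Of 14 GABA receptor genes, GABRB2 was higher (0.70) and GABRA5 (−0.45) and GABRQ (−0.57) were lower, 1 of them without animal 13 or 15 and 0 without 16. Of 14 serotonin receptor genes, HTR2B was higher (0.38) and HTR2A (−0.53), which encodes another phospholipase-coupled receptor, was lower beside HTR2C. HTR2A read only 4.83 to 5.43 in the subiculum and 5.38 to 5.85 in the EC, and HTR2B read below 5 in both, so both are dim here, and HTR2B lost its call without animal 13, 14 or 16. The noradrenaline receptor gene ADRA2A (−0.54) and the dopamine receptor gene DRD5 (−0.47) were the 2 lower of 22 receptor genes for acetylcholine, dopamine and noradrenaline, and none was higher.

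Of 25 sodium, calcium and HCN channel genes, 7 were higher and 1 lower with a median of 0.20, led by the sodium channel subunits SCN2B (0.76), SCN3B (0.54), SCN4B (0.45) and SCN8A (0.58) and the leak channel gene NALCN (0.57). Without animal 13, or without animal 16, 3 were higher. The count was also 3 with the mean over all probe sets, where SCN2B, NALCN and SCN8A lost their calls. It was 4 when the spread was shared over 32 arrays. SCN8A lost its call in 5 alternatives, and the 1 lower member lost its call when any 1 animal was left out. Of 32 potassium channel genes, 5 were higher and 1 lower with a median of 0.10. KCNS3, a modifier subunit found in parvalbumin cells, was higher by 0.99 ± 0.111 (SE; limma adjusted p = 2.79e-05), and KCNIP4 (0.77), KCNA1 (0.75) and KCND2 (0.62) followed. None of the 4 overlapped between the regions, as was so for 1068 of the 1373 called genes.

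Among 20 calcium-binding proteins, 4 were higher and 4 lower, the latter 2 without animal 13 or without the block. NCALD, neurocalcin, was higher by 1.22 and CAMK4, a calcium-dependent kinase of the nucleus, by 0.95, next to PCP4 and PVALB. Of 26 synaptic vesicle genes 5 were higher, among them SNAP25 (0.55), CPLX1 (0.71), CPLX2 (0.47) and SYT2 (0.37), and RIMS2 (−0.44), a protein of the active zone, was lower. SYT2 lost its call when any 1 animal was left out, and 3 vesicle genes were higher without animal 13, 14 or 16, when the spread was shared over 32 arrays and with the mean over all probe sets. Of 15 immediate early genes, FOSL2 (1.03) and NR4A3 (0.53) were higher and EGR4 (−0.75) and DUSP1 (−0.43) lower; without animal 16, 1 was higher and 4 were lower.

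Of 25 oxidative phosphorylation genes, 4 were higher and 0 lower with a median of 0.15: ATP5F1A (0.46), ATP5F1B (0.39), COX5A (0.41) and NDUFS3 (0.47). Without animal 13, and when the spread was shared over 32 arrays, 2 were higher, and 1 was without animal 15. ATP5F1B and COX5A each lost their call in 4 alternatives and NDUFS3 in 2. Ribosomal protein genes had a median of −0.16, with 22 of 24 differences negative and RPL38 (−0.57) the only call. The RPL38 value was turned by the choice of probe set, since the mean over its probe sets was 0.52 higher in the subiculum (limma adjusted p = 0.0115). Among 20 schizophrenia candidate genes, ZNF804A was higher (0.51) and HTR2A, RELN and DTNBP1 (−0.44) lower. ZNF804A was not called without animal 14 or 16.

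Set among the 5 newborn regions, ATOH7 was highest in the subiculum at 8.14 ± 0.516 (SD, n = 4) and 5.48 to 6.05 on average in the other 4 regions. TSHZ2, TOX, NEFM, RXFP1, HLF and PCP4 were also highest in the subiculum, with no subicular array overlapping the next region. NTS was not: CA1 read 9.03 ± 0.224 (SD), the subiculum 8.89 ± 0.434, and these overlapped, while CA3 read 6.19, the EC 4.86 and the dentate gyrus 4.23. HAPLN4 likewise was 9.28 in CA3 and 8.80 in the subiculum with overlapping arrays, and MOBP and MBP overlapped among CA1, the subiculum and CA3. For HTR2C, PTGDS, COL1A2, DCN, SERPIND1, SLC13A4, CEMIP, LRRC17, AP3D1 and PHACTR2 it was the EC that stood above all other regions without overlap. PTGDS was lowest in the subiculum, below CA1, the dentate gyrus and CA3, and COL1A2 averaged 5.97 to 6.24 in the 4 regions other than the EC. KCTD4 was highest in the dentate gyrus at 9.45 and lowest in the subiculum at 7.21, with EC at 8.60 in between. VIM overlapped between the EC (10.77) and the dentate gyrus (10.39).

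**Figure D4:**
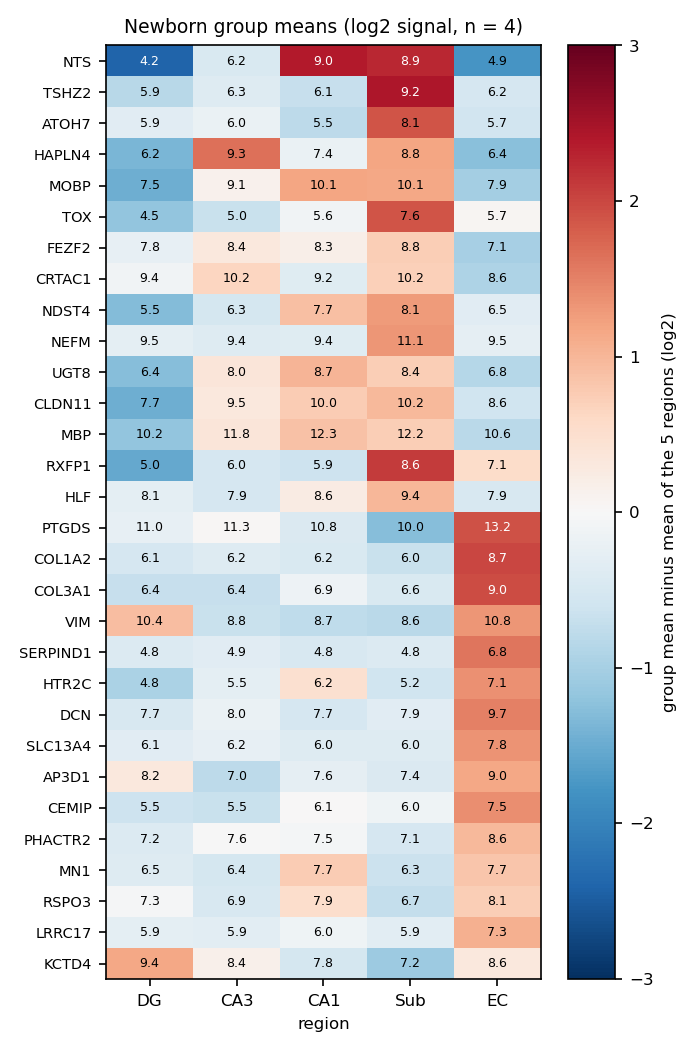
Rows are the 30 genes with the largest newborn differences and columns the 5 newborn regions; the printed number is the group mean log2 signal (n = 4) and the colour the group mean minus the mean of the 5 regions (log2). ATOH7, TSHZ2, TOX and RXFP1 are red in the Sub column only or most, and the collagen genes in the EC column.

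Animals of the 3 later ages, 6 months, one year and adult (6 to 12 years), did not enter the newborn test, although their arrays entered the quantile normalization and the choice of probe set. There were 4 animals at each age. Of the 1373 genes called in newborns, 70.1% differed in the same direction at 6 months, where 58.6% of all genes did, 55.4% at one year (52.8% of all genes) and 77.1% in adults (58.3% of all genes). At all 3 later ages 48.1% kept the newborn direction, against 29.3% of all genes. Genes lower in the newborn subiculum were lower in the adult in 87.9% of cases and those higher were higher in 68.3%. At 6 months these shares were 74.3% and 66.6%. At one year they were 62.5% for lower genes and 49.7% for higher ones, the latter under the 52.8% of all genes. The shares of all genes were not split by direction. The median difference was 0.50 for higher and −0.50 for lower genes in newborns and 0.16 and −0.33 in adults. Since the genes were chosen by passing the newborn test, which raises their newborn size, the smaller adult medians are not a result. The subiculum array of adult number 4 and the EC array of one-year number 8 had log2 GAPDH ratios of 2.98 and 2.79, where the other 22 arrays of these regions and ages lay between 1.10 and 1.69. Without number 8 the one-year share was 61.9% (54.6% of all genes), and without number 4 the adult share was 76.9% (57.2%).

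Among the newborn genes, HAPLN4 kept its difference at all ages, at 2.94, 3.41 and 2.63 after 2.43 in newborns. TRPS1 (−1.23, then −1.19, −1.18 and −0.99) and PVALB (1.30, then 1.44, 1.59 and 1.65) also stayed near their newborn values. FEZF2 went from 1.74 to 1.37, 1.27 and 2.24 and TOX from 1.84 to 1.97, 1.59 and 1.70. The myelin genes UGT8 (1.58, then 2.11, 1.64 and 1.41) and MOG (1.30, then 2.06, 2.03 and 1.36) stayed higher in the subiculum at each age. The COL1A2 difference was −0.66, −0.78 and −1.02 at the later ages, when the EC means were 6.84 to 6.89 after 8.65 in newborns.

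Whether the difference between the regions itself changed from newborn to adult was tested on the differences within each number. In limma, 211 of 19775 genes were called (1.07%), 61 with a rise of Sub minus EC (0.308%) and 150 with a fall (0.759%). With arrays centred on their medians, 12.6% of calls were rises, where the quantile-normalized values gave 28.9%, and with values as deposited 14.4%. Of the 211, 106 were also called in newborns, and in 79 of these the adult difference had the opposite sign, in 21 it was smaller and in 6 larger. Since the newborn animals enter both tests, this overlap does not stand as separate evidence. The count was 27 without number 14, 28 without 16, 47 without 1, 105 without 4, 373 without 8 and 334 without 15, and 19 genes were called under all 16 leave-outs, with HTR2C, ATOH7 and SPP1 among the 10 named here.

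HTR2C turned round. Within animals the newborn differences were −2.42, −2.10, −1.55 and −1.81 and the adult ones 2.32, 2.11, 1.19 and 1.73, with −0.75 at 6 months and −0.01 at one year on average. All newborn values were negative and all adult values positive, a change of 3.81 ± 0.279 (SE; limma adjusted p = 2.82e-07). The HTR2C signal in the subiculum went from 5.15 in newborns to 6.04, 7.39 and 8.45, while the EC read 7.11, 6.79, 7.40 and 6.61.

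ATOH7 lost its difference. The newborn differences were 2.71, 2.85, 1.85 and 2.40 and the adult ones 0.06, 0.15, 0.40 and −0.12, with means of 1.14 and 0.74 between. The change was −2.33 ± 0.288 (SE; limma adjusted p = 0.000536), and the subicular signal went from 8.14 to 6.92, 6.58 and 5.90 while the EC stayed between 5.69 and 5.84. NTS was still higher in the adult subiculum by 2.36, against 4.03 in newborns. Its change of −1.67 had an adjusted p of 0.0407 and was called in 8 of 16 leave-outs; it was not called with an intensity trend in the prior (0.898) or without the block (0.104).

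SPP1, the secreted phosphoprotein osteopontin, appeared as a difference after birth. It differed by −0.88, 0.17, −0.07 and −0.43 within newborn animals and by 1.62, 1.84, 2.09 and 1.10 within adults, and it was called for the change (1.96 ± 0.250 SE; limma adjusted p = 0.000636). The SPP1 change was 0.67 with the mean over its probe sets, where it was not called (adjusted p = 0.139). SLC17A6, the vesicular glutamate transporter more typical of thalamic and some subicular neurons, went from −0.36 to −2.27, with a signal of 8.01 and 6.41 in the subiculum and 8.38 and 8.67 in the EC. PDYN went from 1.39 to −0.30 and GXYLT2, a xylosyltransferase, from 1.08 to −0.77.

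PTGDS and COL1A2 came closer between the regions. The PTGDS difference went from −3.20 in newborns to −0.54, −0.60 and −1.25. The subicular signal was 9.96 in newborns and 12.12 to 12.19 later, while the EC stayed at 12.74 to 13.37. For COL1A2 it was the EC that differed, 8.65 in newborns and 6.89 in adults, against 5.97 and 5.87 in the subiculum. The changes were 1.95 (limma adjusted p = 0.0136) and 1.66 (0.0201), called in 14 and 11 of the 16 leave-outs. With an intensity trend in the prior neither was called (0.148 and 0.141), and COL1A2 was not called without the block (0.0646). AP3D1 went from −1.58 to −0.01, a change of 1.57 (limma adjusted p = 0.0136) called in 14 leave-outs. SLC17A6, GXYLT2 and PDYN were each called in 13, and lost the call without number 1, 14 or 16. SLC17A6 was not called with the intensity trend (0.101).

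**Figure D5:**
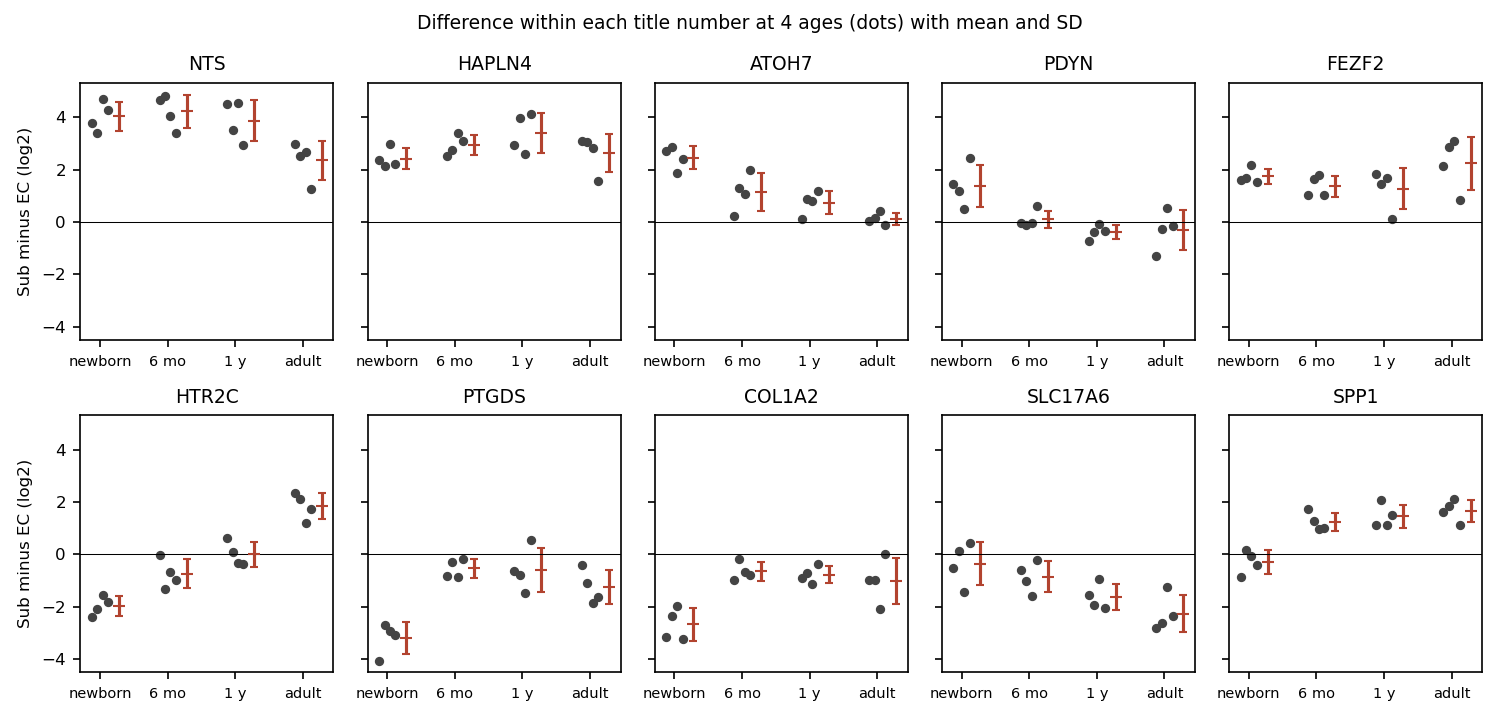
Sub minus EC (log2) is plotted for 10 genes at 4 ages, 1 dot per title number (4 an age), with the mean and SD beside the dots in red. HTR2C runs from −1.97 in newborns to 1.84 in adults, ATOH7 from 2.45 to 0.12, and HAPLN4 stays between 2.43 and 3.41.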

How the data were processed

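The authors deposited 1 log2 value for each probe set on each array. The sources used here do not say how probes were summarised or arrays scaled ("not given in the sources used here"). Per the labels' protocols, total RNA was extracted with Trizol and labelled with biotin in a two-cycle protocol. Of 54675 probe sets, 62 were controls, 41097 had 1 gene symbol, 1801 several and 11721 none in the platform annotation; only those with 1 symbol were used. Of the controls, 6 have 1 symbol and are counted in both classes, and 1 gene, GAPDH, is represented by one. The probe set of highest mean over the 80 arrays stood for its gene, and no gene was left out as dim. Arrays were quantile normalized together with limma 3.58.1 (R 4.3.3).

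Newborn Sub minus EC was fitted with lmFit and eBayes on the 8 arrays, with the title number as a block; the change with age was fitted on the 16 within-number differences of 4 ages, adult minus newborn. Benjamini-Hochberg adjustment ran over the 19775 genes. The design text has each animal give every region, and 16 numbers stand for 16 animals, which is the basis of the pairing; deviations of same-numbered newborn arrays correlated at −0.024 to 0.084, and 0 of 4 pairs were over 0.1. The tests were tried on simulated data. The number of arrays limits the precision, no detection calls were used, and SE is the moderated one that limma gives.

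Genes were named by a rule: the 15 largest rises and 15 largest falls called in all 4 pairs with the higher mean above the median gene, 5 rises and 5 falls for the change with age, and the 5 lowest p-values of a list; exceptions are stated beside them. The members and the 41 lists were chosen with earlier results of these data known. Alternatives were other scalings, a filter on dim genes, the mean over probe sets, an intensity trend, no block, larger fits, a GAPDH covariate and leaving out each number. Figures were drawn with matplotlib 3.10.9 (Python 3.11.15).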

Additional observations from a re-analysis of the deposited data

Results flagged for a closer look

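In 145 named genes, 290 groups of 4 newborn arrays were examined for 1 array that stood apart from the other 3; chance alone flags about 1 in 20 groups, and 16 were found. In the subiculum, animal 15 stood low for TSHZ2 (8.17, others 9.39 to 9.63) and high for HAPLN4 (9.60, others 8.45 to 8.57) and CALB1 (7.17, others 6.47 to 6.58). Animal 14 stood high for NEFH (8.68, others 8.30 to 8.36) and low for GRIN3A (9.26, others 9.33 to 9.34). Animal 13 stood high for THRB (8.77, others 8.51 to 8.52) and low for EGR4 (7.31, others 7.70 to 7.77), and animal 16 low for GABRA5 (6.00, others 6.39 to 6.42). In the EC, animal 14 stood high for CALB2 (8.96, others 8.09 to 8.23), IRX1 (5.10, others 4.79 to 4.83), CNTN2 (7.39, others 7.12 to 7.15) and EGR4 (8.88, others 8.18 to 8.25), and low for MN1 (6.96, others 7.90 to 8.08) and FGF9 (6.38, others 6.73 to 6.79). Animal 16 stood low for OPRK1 (5.15, others 5.92 to 6.06), and animal 13 low for DTNBP1 (7.72, others 8.01 to 8.02).

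By the limma test of the change, the difference between the regions changed from newborn to adult in 20 of 145 named genes. Of these 20, 10 were named for this change. Most of the other named genes were named for a newborn call, and the newborn animals enter both tests. Over all genes 1.07% were called, but among the 1373 newborn calls 106 were. The share of 1.07% is therefore no fair background for the named genes. Beside HTR2C (3.81), SPP1 (1.96), PTGDS (1.95), COL1A2 (1.66), AP3D1 (1.57), ATOH7 (−2.33), SLC17A6 (−1.90), GXYLT2 (−1.85), PDYN (−1.68) and NTS (−1.67), the adult difference was more positive for NEFH (0.92), CALB2 (0.87) and RELN (1.06). It was more negative for EFNA5 (−1.66), CAMK4 (−1.23), HLF (−1.11), THRB (−0.90), CYP26A1 (−0.79), NCAM1 (−0.69) and FOSL2 (−0.67). EFNA5, a ligand that repels axons, was higher in the newborn subiculum by 0.99 and differed by −0.52, −1.47 and −0.68 at the later ages. Of the 16 fits that leave out 1 number, NEFH was called in 15, CAMK4 in 14, EFNA5 and HLF in 12, RELN, THRB and FOSL2 in 11, NCAM1 in 10, CYP26A1 in 5 and CALB2 in 3.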

How the results depend on the processing

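The newborn counts of 755 higher and 618 lower genes became 357 and 359 with the mean over all probe sets and 464 and 361 when the spread was shared over the 32 arrays of 4 ages. Leaving out 1 number gave 435 to 769 higher and 351 to 557 lower. Fewer samples are fitted when a number is left out, and the cause of all these moves was not tested. Without the replicate block, 1144 genes were called, 1102 of them among the 1373, and 133 of the 142 named genes kept their call; the 9 that lost it were CALB1, GRP, RELN, VCAN, CDH5, SFRP2, GRIA3, OPRK1 and SCN8A. With values as deposited 141 of 142 kept direction and call, with centred arrays 138, with all 20 newborn arrays 127, with the GAPDH ratio added 128 and with the mean over probe sets 94. RPL38 alone changed sign, to 0.52 with the mean over probe sets. Centring on the median made 61.4% of calls higher, where quantile normalization gave 55.0%, and shifted the median of all genes by 0.02.

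For the change with age, the 61 rises became 37 with centred arrays, 34 with the mean over probe sets and 32 without the block, and leaving out 1 number gave 11 to 108. The 150 falls became 255 with values as deposited, 257 with centred arrays, 73 with the mean over probe sets and 80 without the block, and 15 to 265 when 1 number was left out. Without numbers 4 and 8, a choice made after seeing the GAPDH ratios, 129 rose and 245 fell. The cause of these moves was not tested. The share of newborn calls with the same sign at all 3 later ages was 41.0% to 60.2% when 1 number was left out, and the GAPDH difference of −0.025 was −0.053 to 0.008. With 4 animals a group, differences well under 1 log2 unit in the change with age were at the limit of these arrays, and genes under a signal of about 5 read near the lowest values of the arrays.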

Other observations

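Other newborn differences had their own order over the 5 newborn regions. NRP1 was lowest in the EC, and its arrays there overlapped no other region. PEX5L and POU3F1 were highest in CA1 and next in the subiculum, while PLXNC1 was highest in the EC and next in CA1, each without overlap between those positions. MEIS2 overlapped between the EC and CA1, and both stood above the subiculum.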
